A study of Mus musculus with 16 samples.

Results

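The genes described here are the 7 small leucine-rich proteoglycans decorin (Dcn), lumican (Lum), biglycan (Bgn), fibromodulin (Fmod), osteoglycin (Ogn), asporin (Aspn) and prolargin (Prelp), the large chondroitin sulfate proteoglycan versican (Vcan), and the hyaluronan synthases Has1 and Has2. They were chosen by name, as matrix genes of one functional class, with earlier results of these data known. They make up 10 of the 56941 genes in the table. Of these 10, 9 had enough counts to be tested among 16306 genes, and Has1 did not. Gene expression was measured by bulk RNA-seq in primary murine gingival fibroblasts (mGF), which were grown from explants of the gingiva around the maxillary second molar of wild-type C57Bl6 mice aged 3 to 6 months and used between passages 2 and 8. The 4 conditions were BSA (control), the albumin vehicle without fatty acid; IL-1β at 1 ng/mL, an inflammatory cytokine; palmitate at 200 µM, a saturated fatty acid carried on albumin; and palmitate + IL-1β, both agents given together at these concentrations. Each condition had 4 libraries, numbered 1 to 16 in that order. No source states whether the libraries of a condition came from separate cultures or mice, so the p-values measure the spread between these libraries, which may be technical.

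Small leucine-rich proteoglycans are secreted core proteins built of leucine-rich repeats, most of them carrying a chondroitin, dermatan or keratan sulfate chain, and they bind collagen fibrils and set how fibrils assemble and space. Versican holds water in loose connective tissue and binds hyaluronan, a long unsulfated sugar polymer that Has1 and Has2 make at the plasma membrane and extrude into the matrix. In gingiva, fibroblasts are the main makers of this matrix, and proteoglycan loss accompanies inflammation of the tissue around teeth.

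The libraries held 21234789 to 92752515 gene counts, and the second deepest held 35329711, so that 1 palmitate library (replicate 10) was sequenced far deeper than the rest. The lowest level that 3 counts can show was 0.0331 to 0.146 CPM (counts divided by the scaled library total in units of 1e+06 counts). All 8 fibroblast markers (Col1a1, Col1a2, Col3a1, Pdgfra, Pdgfrb, Thy1, Fbn1 and Vim) were present, with summed levels of 30283 to 35768 CPM, whereas the 4 epithelial markers summed to at most 0.728 CPM, the 4 endothelial markers to at most 2.25 CPM, the 5 leukocyte markers to at most 3.28 CPM and the 4 Schwann cell markers to at most 3.36 CPM. Markers of mural cells summed to 157 to 199 CPM. Of the 5 osteoblast or chondrocyte markers, Sox9, a transcription factor of cartilage and other connective tissue cells, gave nearly the whole sum and fell with palmitate, while Bglap and Ibsp averaged at most 0.00976 CPM and 0.0966 CPM in any condition. In bulk RNA, fewer cells of a kind and less RNA per cell cannot be told apart.

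With palmitate, these genes split by mRNA level into some that fell to well under the BSA level and others that stayed near it. Ogn mRNA fell to 30.8% of its BSA mean, Aspn to 44.0% and Has2 to 54.1%, and Fmod fell to 88.5%. The abundant Bgn stood at 99.6% of its BSA mean and Dcn at 98.2%. With IL-1β alone, Has2 fell to 77.1% and Bgn to 90.6%, and Vcan rose to 117% of BSA.

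In counts, 4 of the 9 tested genes were called lower and 0 higher with palmitate at an adjusted p under 0.05 (edgeR quasi-likelihood test, Benjamini-Hochberg over 16306 genes), against a background of 17.5% of all tested genes called lower and 19.8% called higher. With IL-1β, 2 were called lower and 1 higher (background 4.97% lower and 10.1% higher). With palmitate + IL-1β, 6 were called lower and 0 higher (background 22.5% lower and 24.8% higher). The median log2 fold change over the 9 genes was -0.15 with palmitate, -0.08 with IL-1β and -0.22 with both, and over all tested genes it was 0.00 in each comparison. The libraries of the 2 conditions did not overlap for 3 of the 9 genes with palmitate, for 4 with IL-1β and for 6 with both, where 36.0%, 17.6% and 41.5% of all tested genes did not overlap. The 3 comparisons share the 4 BSA libraries.

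**Figure D1:**
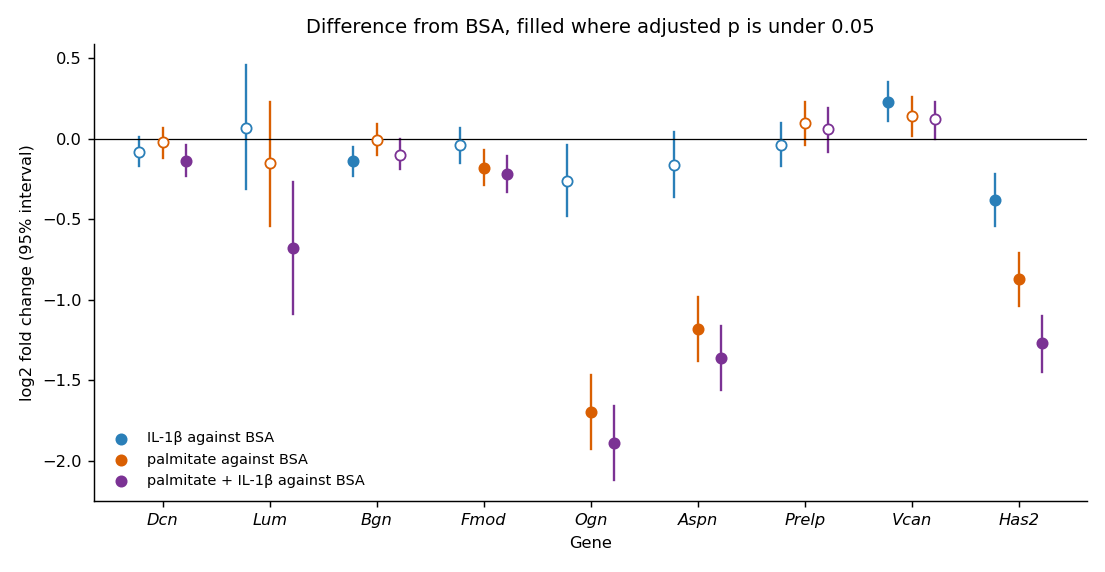
Log2 fold change (vertical axis) of the 9 tested genes with IL-1β, palmitate and palmitate + IL-1β, each against BSA (control), with 95% intervals; filled points passed an adjusted p of 0.05 in edgeR. Ogn, Aspn and Has2 lie lowest with palmitate, at -1.70, -1.18 and -0.87, and Vcan has the only filled point above 0, with IL-1β.

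Levels in CPM per kilobase of canonical transcript (RPKM) in BSA spanned a range from 3282 ± 132 (SD, n = 4) for Bgn to 0.108 ± 0.0715 for Has1. Bgn was the gene of rank 6 by RPKM among the 16306 tested genes in each of the 4 conditions. Aspn followed at 187 ± 6.44 and Fmod at 107 ± 6.06 RPKM. Ogn (31.4 ± 0.905 RPKM) and Prelp (31.3 ± 1.46 RPKM) were closer to each other than their spread between libraries. Vcan stood at 18.9 ± 0.634, Dcn at 11.8 ± 0.203 and Has2 at 3.23 ± 0.164 RPKM. Lum, a core protein of corneal and dermal fibrils, stood at 0.739 ± 0.0748 RPKM, with 19 to 64 counts in every library but the deepest. Dcn is often the leading proteoglycan of connective tissue, and in these cultured mGF it ranked 4025 of the tested genes. With the length of all annotated exons in place of the canonical transcript, the values in BSA were 1177 RPKM for Bgn, 151 for Aspn, 5.54 for Dcn and 0.284 for Lum, and the order of these genes was the same.

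**Figure D2:**
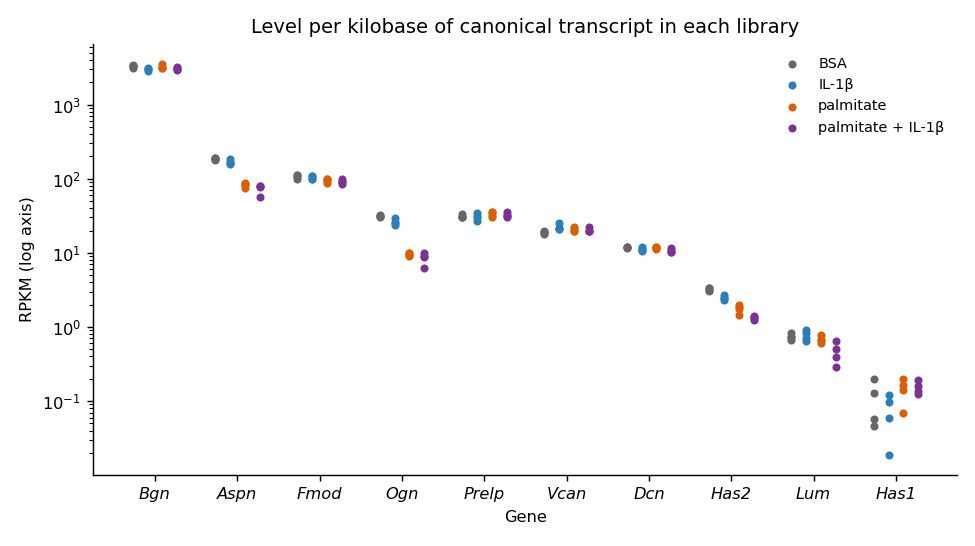
Level of each of the 10 genes in each of the 16 libraries, as CPM per kilobase of canonical transcript (RPKM, log axis), coloured by condition. Bgn lies highest in every condition and Has1 lowest, and the points of Aspn, Ogn and Has2 step down in the palmitate conditions.

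Summed over the 7 small proteoglycans, the level was 3652 ± 121 RPKM in BSA, 3315 ± 98.4 with IL-1β, 3502 ± 216 with palmitate and 3289.7 ± 91.5 with both. Bgn made up 89.9% ± 0.658 of that sum in BSA and 93.4% ± 0.439 with palmitate. The share of Aspn in the sum was 5.13% ± 0.296 in BSA and 2.36% ± 0.174 with palmitate, and that of Ogn was 0.861% ± 0.0544 and 0.276% ± 0.0145.

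Ogn, Aspn and a further pair of small proteoglycan genes that were not chosen as members, Omd (osteomodulin, of bone and tooth matrix) and Ecm2 (an extracellular matrix protein with leucine-rich repeats), lie side by side on the plus strand of chromosome 13 within 122 kb (GRCm39, chr13:49658236-49780412). Their order is Ecm2, Aspn, Omd and Ogn. Because the 4 neighbours fell together with palmitate, the 250 bases before each gene start annotated in GENCODE vM39 are shown. They run 5′ to 3′ from GRCm39, with capitals marking matches to the motif letters searched. The RefSeq annotation starts Aspn and Ogn elsewhere, inside GENCODE exons or genes. Which starts these cells use was not tested.
Ecm2 (chr13:49657986-49658235, plus strand): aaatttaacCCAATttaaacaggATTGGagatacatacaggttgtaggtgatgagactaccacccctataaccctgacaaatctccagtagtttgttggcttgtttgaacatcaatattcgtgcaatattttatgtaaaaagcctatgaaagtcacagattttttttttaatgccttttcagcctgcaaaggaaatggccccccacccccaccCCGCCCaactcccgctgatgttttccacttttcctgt
Aspn (chr13:49697359-49697608, plus strand): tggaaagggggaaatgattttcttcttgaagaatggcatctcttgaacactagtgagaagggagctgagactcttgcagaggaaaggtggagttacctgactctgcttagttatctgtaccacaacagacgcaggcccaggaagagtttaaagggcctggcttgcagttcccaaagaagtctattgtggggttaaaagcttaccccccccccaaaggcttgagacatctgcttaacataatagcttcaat
Omd (chr13:49735688-49735937, plus strand): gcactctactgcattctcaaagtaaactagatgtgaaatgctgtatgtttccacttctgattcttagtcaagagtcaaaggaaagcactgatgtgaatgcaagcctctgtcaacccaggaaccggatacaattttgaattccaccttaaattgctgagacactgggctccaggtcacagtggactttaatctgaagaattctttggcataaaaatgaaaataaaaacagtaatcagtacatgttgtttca
Ogn (chr13:49761099-49761348, plus strand): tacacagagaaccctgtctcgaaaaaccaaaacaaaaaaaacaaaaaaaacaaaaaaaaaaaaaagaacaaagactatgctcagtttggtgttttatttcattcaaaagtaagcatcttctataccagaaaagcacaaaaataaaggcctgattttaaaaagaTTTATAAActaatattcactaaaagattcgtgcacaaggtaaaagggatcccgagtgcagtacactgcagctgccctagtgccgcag

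None of the 4 windows overlapped an annotated exon of any gene. Searched on both strands were the TATA box (TATAAA), the CCAAT box (CCAAT), the GC box (GGGCGG) and letters read by AP-1 (TGANTCA), STAT (TTCNNNGAA) and C/EBP-ATF (TGATGNAA) factors. In the Ogn window, TATAAA matched on both strands, in overlapping letters that begin 87 and 85 bases before the gene start, and 9.89% of 16244 tested genes with such a window held it. The Ecm2 window held 2 matches to CCAAT (34.1% of windows) and 1 to GGGCGG (36.4%). The Aspn and Omd windows held none of the 6. Letters of the other motifs, found in 5.28% (AP-1), 6.76% (STAT) and 2.49% (C/EBP-ATF) of windows, were in none of the 4. The GC content of these windows was 34.0% for Ogn, 38.4% for Omd, 41.2% for Ecm2 and 46.4% for Aspn, where the median of all windows was 53.2%. Such matches are a description of letters and not of bound sites.

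Osteoglycin, also called mimecan, is a keratan sulfate proteoglycan named for bone that is also made by fibroblasts. Its mRNA level was 161, 159, 160.4 and 169 CPM in the BSA libraries and 51.8, 47.0, 49.0 and 52.3 CPM in the palmitate libraries. With palmitate + IL-1β it was 51.3, 44.9, 32.3 and 46.6 CPM, and with IL-1β alone 152, 136, 124 and 130.5 CPM. Every library with palmitate lay far below every library without it, and the IL-1β libraries lay all below the BSA libraries. Against BSA the log2 fold change was -1.70 (SE 0.11, edgeR adjusted p = 8.7e-09) with palmitate and -1.89 (SE 0.11, adjusted p = 1.9e-09) with both agents. With IL-1β it was -0.26 (SE 0.10), which did not pass the test (edgeR adjusted p = 0.109). Whether this IL-1β value passed depended on a library of another condition, while the value stayed at -0.26. Without palmitate + IL-1β replicate 15, the lowest Ogn library at 32.3 CPM, the adjusted p was 4.5e-04 in edgeR. With all libraries, DESeq2 gave an adjusted p of 0.0260.

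Asporin binds collagen and holds back TGF-β and BMP signalling, and it is a known product of the periodontal ligament. Its level was 441, 423, 457 and 452 CPM in BSA, 203, 196, 177 and 205 CPM with palmitate, and 186, 186, 132 and 185 CPM with palmitate + IL-1β. The libraries with and without palmitate were again well apart. The log2 fold change against BSA was -1.18 (SE 0.09, edgeR adjusted p = 6.3e-08) with palmitate and -1.36 (SE 0.09, adjusted p = 8.5e-09) with both. With IL-1β alone the libraries held 435, 397, 376 and 380.0 CPM, overlapping those of BSA (-0.16, SE 0.09, edgeR adjusted p = 0.290, and 0.0212 without palmitate + IL-1β replicate 15). Adding IL-1β to palmitate gave -0.18 (95% interval -0.38 to 0.02) for Aspn and -0.19 (-0.42 to 0.05) for Ogn, neither of which passed the test.

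The 2 neighbours of the same run moved the same way. Omd fell from 19.6 ± 1.64 CPM in BSA to 5.42 ± 0.615 with palmitate (log2 fold change -1.87, edgeR adjusted p = 8.4e-12) and 4.45 ± 0.974 with both. Ecm2 fell from 4.69 ± 0.393 to 2.75 ± 0.212 CPM (-0.78, edgeR adjusted p = 2.7e-06). All 4 genes of the run were thus called lower with palmitate, where 17.5% of all tested genes were. Ogn and Aspn, whose calls are given above, are among the 4. The fall was not shared by the next gene on the Ogn side, Nol8, a nucleolar protein, which rose from 42.2 to 59.1 CPM (0.49, edgeR adjusted p = 4.5e-04). Tes3-ps, the next gene annotated as protein-coding on the Ecm2 side, was not called (-0.04, edgeR adjusted p = 0.934). Cenpp, a centromere protein gene that spans the whole run on the minus strand and overlaps 18.8% of the exon bases of Ogn and 9.12% of those of Aspn, was called lower too, from 6.87 to 4.42 CPM (-0.62, edgeR adjusted p = 6.7e-05). Reads were counted by strand, and the part of this overlap in the values of Ogn and Aspn was not tested.

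Sox9 was also called lower with palmitate, where 17.5% of all tested genes were called lower. It averaged 54.0 CPM in BSA, 45.6 with IL-1β, 31.9 with palmitate and 29.7 with both (palmitate against BSA -0.76, edgeR adjusted p = 2.7e-13). Sox9 was called lower with IL-1β too, where none of the 4 genes of the run was called in the main fit. The summed level of the 5 osteoblast or chondrocyte markers was 50.9 to 58.3 CPM in BSA, 47.0 to 47.7 with IL-1β, 31.6 to 34.1 with palmitate and 28.9 to 34.6 with both. Of that list, 2 genes were tested and Sox9 alone was called, and 1 marker stayed at or under the floor of 3 counts in every library. Of the 8 fibroblast markers, 4 were called lower with palmitate (Vim -0.31, Col1a2 -0.17, Thy1 -0.15 and Pdgfrb -0.12) and 2 higher (Pdgfra 0.54 and Fbn1 0.53), and their summed level was 32783 to 34818 CPM in BSA and 30794 to 33347 with palmitate. The summed Schwann cell markers were 2.69 to 2.90 CPM in BSA and 1.94 to 2.44 with palmitate, without overlap, and 1 of them, S100b, was called lower, from 0.407 to 0.152 CPM (-1.46, edgeR adjusted p = 0.0111). That palmitate mean of S100b lies near the floor of 3 counts, which was 0.0331 to 0.146 CPM over the libraries. The part of these markers in the fall of Ogn and Aspn was not tested.

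**Figure D3:**
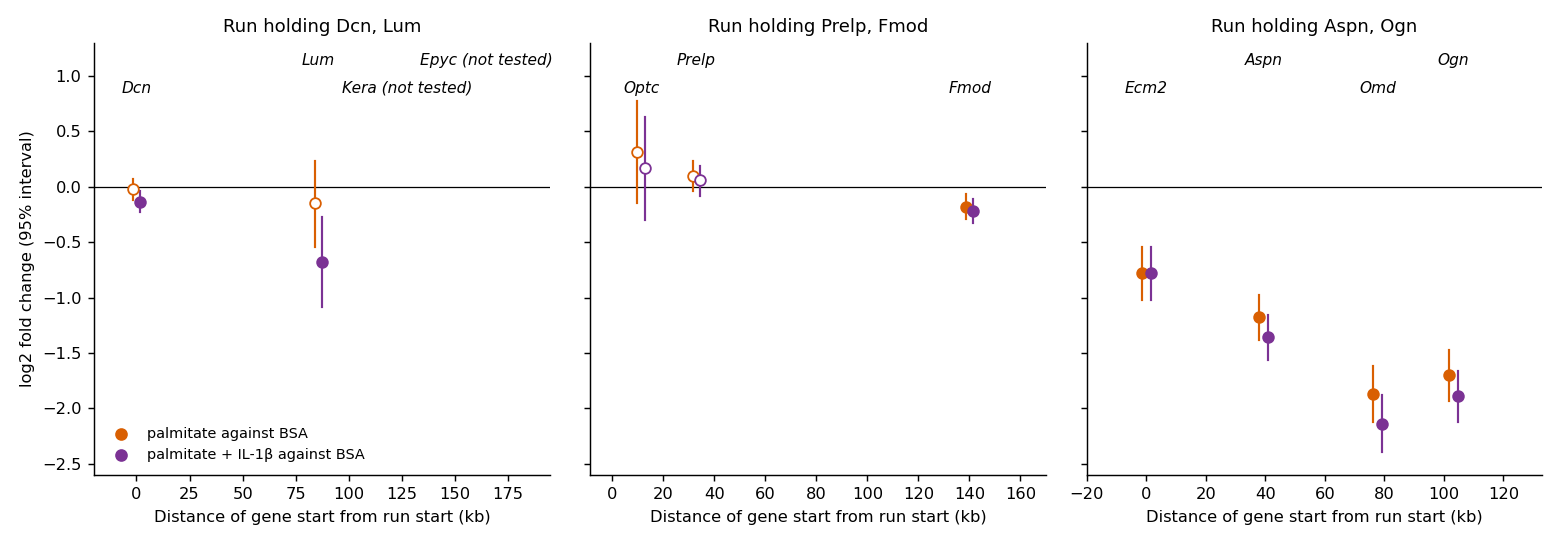
Log2 fold change (vertical axis, 95% intervals) with palmitate and palmitate + IL-1β against BSA for small proteoglycan genes that are neighbours in the genome, by distance of each gene start from the start of its run in kb; filled points passed an adjusted p of 0.05. All 4 genes of the run with Aspn and Ogn lie between -0.78 and -2.14, while no small proteoglycan gene of the other runs lies below -0.68.

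Dcn and Lum form a second run on chromosome 10 with the keratocan (Kera) and epiphycan (Epyc) genes, 203 kb long. Decorin binds collagen and TGF-β, and its level was 70.5, 72.6, 73.3 and 72.6 CPM in BSA and 72.3, 72.5, 70.7 and 68.6 CPM with palmitate, which overlapped. The log2 fold change was -0.02, with a 95% interval of -0.12 to 0.07. With both agents the libraries held 70.2, 63.2, 62.4 and 67.2 CPM, all below the lowest BSA library, and Dcn fell by 0.14 on the log2 scale (SE 0.04, edgeR adjusted p = 0.0128). That call was lost without palmitate + IL-1β replicate 15 (-0.11, adjusted p = 0.0604).

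Lum had few counts. Its level was 1.81, 1.62, 1.79 and 2.06 CPM in BSA, 1.89, 1.51, 1.62 and 1.64 CPM with palmitate, and 1.76, 2.26, 2.03 and 1.57 CPM with IL-1β. With both agents it was 1.25, 1.59, 0.965 and 0.700 CPM, and the highest of these lay just under the lowest BSA library. Lum passed the test with both agents against BSA (-0.68, SE 0.20, edgeR adjusted p = 0.00576) and against IL-1β (-0.75, adjusted p = 0.00380), and not with palmitate alone (-0.15, 95% interval -0.54 to 0.23). Kera and Epyc reached at most 6 and 4 counts in any library and were not tested.

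The third run, 151 kb of chromosome 1, holds opticin (Optc), Prelp and Fmod. Fibromodulin helps to assemble collagen fibrils and is abundant in tendon. It stood at 346, 312, 323 and 352 CPM in BSA and 308, 288, 272 and 313 CPM with palmitate. The ranges touched, since the highest palmitate library (313) passed the lowest BSA library (312), and Fmod fell by 0.18 on the log2 scale (SE 0.05, edgeR adjusted p = 0.00933). Without palmitate replicate 11, the lowest of its condition, the adjusted p was 0.0556. With both agents (311, 291, 262 and 281 CPM) it fell by 0.22 (SE 0.05, edgeR adjusted p = 0.00104), and with IL-1β (337, 311, 309 and 341 CPM) it gave -0.04. Prolargin, which anchors basement membranes to connective tissue, passed no test: it held 131 to 145 CPM in BSA, 132 to 155 with palmitate, 118 to 147 with IL-1β and 131 to 154 with both, and the 95% interval of its palmitate fold change was -0.04 to 0.23. Atp2b4, a plasma membrane calcium pump and the flanking gene on the other side of Optc, rose from 141 to 426 CPM with palmitate (1.59, edgeR adjusted p = 4.9e-14).

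Biglycan, a core protein with chondroitin or dermatan sulfate chains that also engages Toll-like receptors when free of the matrix, lies on the X chromosome. Its level was 7928, 8229, 8125 and 7506 CPM in BSA and 6803, 7373, 7430.3 and 7202 CPM with IL-1β. The groups did not overlap, but the gap between the highest IL-1β and the lowest BSA library was small beside the spread within each. The log2 fold change was -0.14 (SE 0.04, edgeR adjusted p = 0.0285). This call did not outlast the loss of BSA replicate 2 (adjusted p = 0.0827), BSA replicate 3 (0.0572), IL-1β replicate 5 (0.109) or IL-1β replicate 8 (0.0549). With palmitate the libraries held 7561, 7598, 7843 and 8656 CPM (-0.01, 95% interval -0.10 to 0.09), and with both agents 7404, 7147, 7759.7 and 7447 CPM (-0.10, edgeR adjusted p = 0.0807). The value with both agents passed under 6 of 22 alternatives, at -0.17 (adjusted p = 0.00146) with upper-quartile scaling.

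Versican was the only one of the 9 tested genes called higher against BSA. It stood at 229, 238, 249 and 236 CPM in BSA and 264, 262, 273 and 316 CPM with IL-1β, without overlap, and it rose by a log2 fold change of 0.23 (SE 0.06, edgeR adjusted p = 0.00669). With palmitate the libraries held 275, 279.8, 247 and 249 CPM, overlapping BSA, for a value of 0.14 (SE 0.06, edgeR adjusted p = 0.0545) that passed under 7 of 22 alternatives, over which it ranged from 0.07 to 0.17. With both agents they held 251, 251, 285 and 245 CPM (0.12, adjusted p = 0.103). The difference between the palmitate response with and without IL-1β was -0.25 (SE 0.08, unadjusted p = 0.00429, edgeR adjusted p = 0.141). It did not pass over all genes in the fit of 16 libraries, and it did pass without palmitate + IL-1β replicate 15, the highest of its condition (-0.31, edgeR adjusted p = 0.0237).

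**Figure D4:**
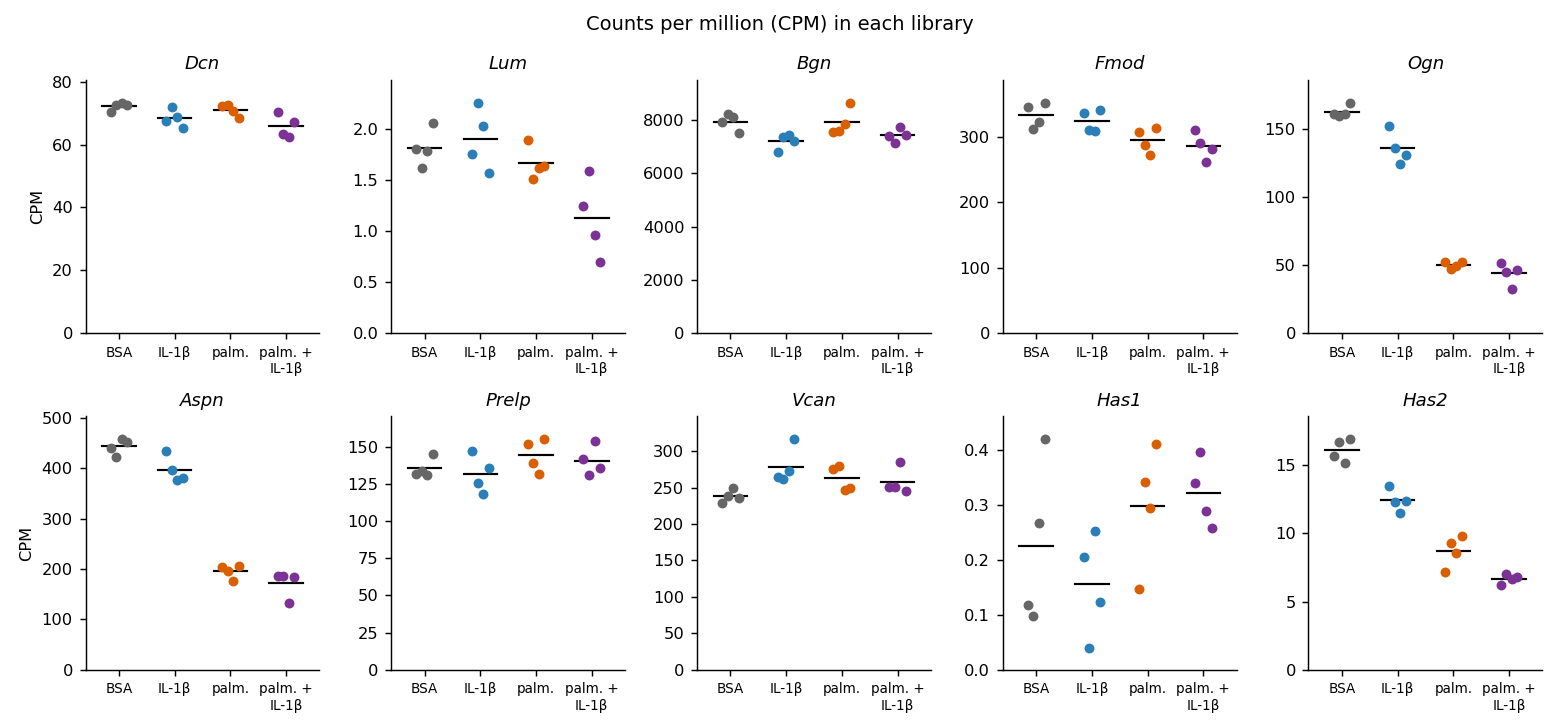
Levels in CPM (vertical axes, each starting at 0) of the 10 genes in each library by condition; points are libraries and bars are means of 4. Has2 steps down over the 4 conditions without overlap, Ogn and Aspn drop in both palmitate conditions, and Has1 reaches at most 0.419 CPM.

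Has2, the main hyaluronan synthase of fibroblasts, was the only one of the 9 called lower with each agent, and it was lower with both than with either. Its level was 15.7, 16.7, 15.2 and 16.9 CPM in BSA, 13.5, 12.3, 11.5 and 12.4 CPM under IL-1β, 7.14, 9.30, 8.59 and 9.82 CPM under palmitate, and 6.23, 7.02, 6.66 and 6.78 CPM with both. No 2 conditions overlapped, in the order BSA, IL-1β, palmitate, palmitate + IL-1β. The log2 fold change against BSA was -0.38 (SE 0.08, edgeR adjusted p = 9.1e-04) with IL-1β, -0.87 (SE 0.08, adjusted p = 1.7e-10) with palmitate and -1.27 (SE 0.08, adjusted p = 3.9e-14) with both. Each neighbouring pair in that order differed: palmitate against IL-1β by -0.49 (edgeR adjusted p = 2.1e-05) and both agents against palmitate by -0.40 (adjusted p = 0.00203). An exact permutation test over libraries gave p = 0.0286 (two-sided) for every pair, the smallest that 4 against 4 libraries allow. That value follows from the lack of overlap and adds nothing to it. On the log2 scale the response to palmitate with IL-1β present differed from that without it by -0.03 (95% interval -0.27 to 0.22).

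Has2os, the antisense RNA that shares 8.03% of the exon bases of Has2, did not pass the test in any comparison with BSA. It averaged 1.63 CPM in BSA, 1.32 with IL-1β, 1.36 with palmitate and 1.61 with both. Has1, a synthase with low activity in most cells, had 1 to 31 counts per library, at 0.0969 to 0.419 CPM in BSA, 0.0390 to 0.253 with IL-1β, 0.146 to 0.411 with palmitate and 0.258 to 0.397 with both. These ranges overlapped between BSA and each treatment, whereas all 4 libraries with both agents lay above all 4 with IL-1β alone. Fitted without the filter on low counts, that difference was 0.98 on the log2 scale (edgeR adjusted p = 0.244), palmitate against IL-1β gave 0.95 (adjusted p = 0.286), and no Has1 comparison passed.

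Further comparisons set the single agents against each other and their mixture. Palmitate + IL-1β against IL-1β called 5 of the 9 genes lower (Lum, Fmod, Ogn, Aspn and Has2) and 0 higher, where 16.1% of all tested genes were lower and 18.9% higher. Palmitate + IL-1β against palmitate called Has2 lower and no gene higher, where 4.10% were lower and 5.71% higher. Palmitate against IL-1β, a comparison added after the data were seen, called Ogn, Aspn and Has2 lower and Bgn higher, where 15.2% were lower and 16.5% higher. For Bgn that was a log2 fold change of 0.14 (edgeR adjusted p = 0.0193), lost without IL-1β replicate 5 (0.0801) or palmitate replicate 12 (0.134). Fmod lay at the threshold there (-0.14, edgeR adjusted p = 0.0507) and was called lower in 13 of 22 alternatives, and Prelp (0.13, adjusted p = 0.124) was called higher in 3 of 22. The interaction of palmitate and IL-1β was called for 0 of the 9 genes by edgeR and by DESeq2, with 2 (Lum and Vcan) at an unadjusted p under 0.05, where 1.99% of all tested genes were called.

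By the root mean square difference over 16 libraries of log2 CPM from the BSA mean, Ogn was most like Mab21l2 (0.141), Mecom (0.172) and Tox (0.179), which averaged -1.52, -1.57 and -1.73 with palmitate on the log2 scale. Aspn was most like Vegfd (0.125), Rcan2 (0.127) and Ednra (0.129), and Has2 most like Pth1r (0.134), Cdh3 (0.156) and Rerg (0.157). Among the members themselves, Dcn and Bgn were the closest pair at 0.0882, and Aspn was closer to Has2 (0.244) than to its genomic neighbour Ogn (0.378). All points share the same libraries, so these values are descriptions.

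Of the other small leucine-rich proteoglycans, 8 of 11 were tested, and 4 were lower and 1 higher with palmitate, with a median of -0.19, where 19.8% of all tested genes were higher and 17.5% lower. Besides Omd and Ecm2, the lower genes were podocan (Podn, -0.42) and Podnl1 (-0.42). Tsukushi (Tsku), a secreted modulator of BMP and Wnt signalling, rose from 16.2 ± 0.825 to 23.1 ± 0.785 CPM with palmitate (0.52, edgeR adjusted p = 8.0e-09) and to 25.1 ± 1.12 with both. With IL-1β, 1 of the 8 was lower and 1 higher (4.97% and 10.1% of all tested genes). With both agents 4 were lower and 1 higher (22.5% and 24.8% of all).

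While Has2 fell, genes of hyaluronan binding and breakdown changed in both directions. Of 25 genes of hyaluronan binding and breakdown, 17 were tested, with 5 higher and 2 lower with palmitate (19.8% and 17.5% of all tested genes), 3 and 1 with IL-1β (10.1% and 4.97% of all), and 5 and 4 with both (24.8% and 22.5% of all). Cd44, the main cell-surface hyaluronan receptor, rose from 315 ± 17.1 CPM to 1005 ± 21.2 with palmitate (log2 fold change 1.67, edgeR adjusted p = 1.8e-24) and to 423 ± 15.5 with IL-1β (0.42, adjusted p = 4.8e-09). Ptx3, a pentraxin that cross-links hyaluronan in matrix, rose from 55.8 ± 2.67 to 130.2 ± 2.55 CPM with palmitate (1.22) and to 100.0 ± 5.97 with IL-1β (0.84). Cemip2, a cell-surface hyaluronidase, fell with IL-1β from 38.1 ± 2.06 to 28.4 ± 1.42 CPM (-0.43, edgeR adjusted p = 6.2e-07) and gave -0.10 with palmitate (adjusted p = 0.133). Cemip, which takes part in hyaluronan breakdown, went the other way: it rose from 561 ± 51.7 to 706 ± 58.6 CPM with IL-1β (0.33, edgeR adjusted p = 3.5e-04), to 709 ± 38.4 with palmitate (0.34, adjusted p = 7.9e-05) and to 742 ± 31.7 with both (0.40, adjusted p = 5.4e-06). The third synthase, Has3, averaged 0.618 CPM in BSA and was called lower with both agents only (-0.97, edgeR adjusted p = 0.0264). The 2 genes called lower with palmitate were Stab2 and Habp4. Stab2, at 1.07 CPM in BSA, gave -1.81 (edgeR adjusted p = 7.7e-06), and Habp4 gave -0.42 (adjusted p = 6.5e-08). The median over the tested genes of this list with palmitate was -0.01.

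Proteases of the ADAMTS family that cut versican and aggrecan changed in both directions. The list of 10 genes held these proteases and the proteoglycans Acan, Ncan and Bcan, and 7 of the 10 were tested, of which only brevican (Bcan) is not a protease. Of the 7, 1 was higher and 4 lower with palmitate (median -0.78), where 19.8% and 17.5% of all tested genes were. With IL-1β 1 was higher and 1 lower (10.1% and 4.97% of all), and with both agents 2 were higher and 4 lower (24.8% and 22.5% of all), Bcan among the lower (-0.89, edgeR adjusted p = 0.00605). Adamts1 fell from 96.9 ± 4.06 to 56.0 ± 3.14 CPM with palmitate (-0.79, edgeR adjusted p = 1.2e-15) and Adamts5 from 137 ± 7.73 to 80.1 ± 6.35 (-0.78, adjusted p = 1.2e-12). Adamts4 rose from 16.7 ± 0.903 to 37.9 ± 1.78 CPM (1.19, edgeR adjusted p = 5.8e-18).

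**Figure D5:**
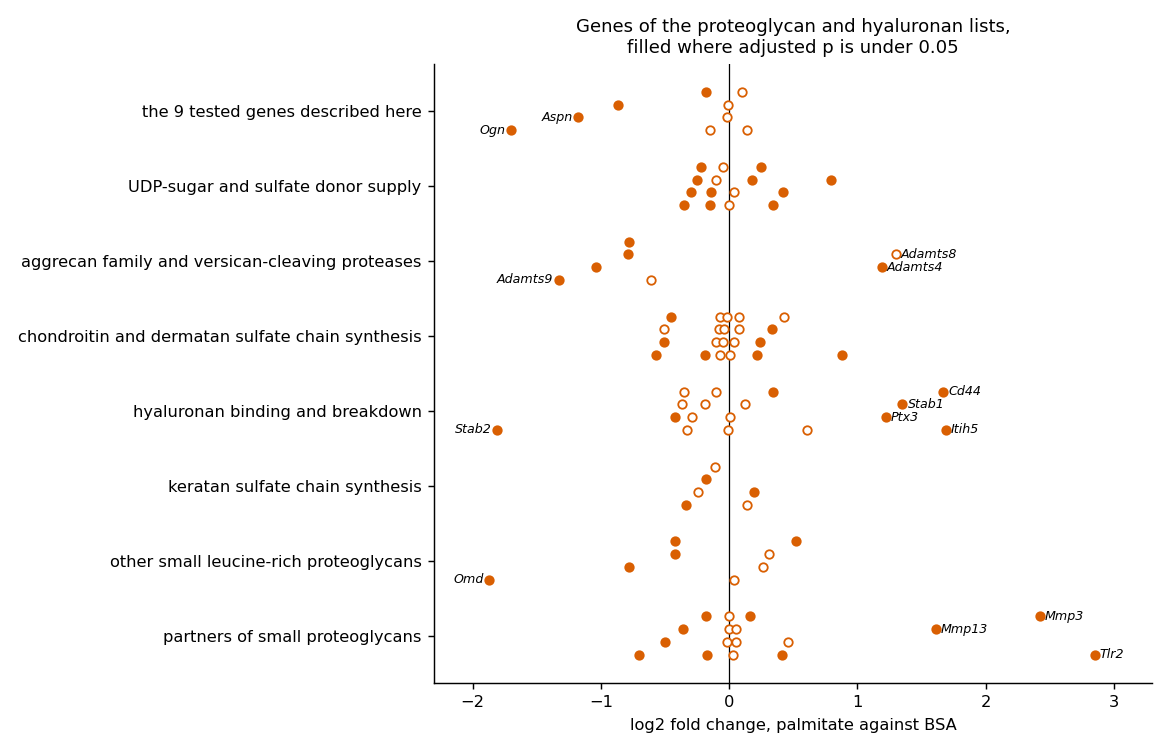
Log2 fold change with palmitate against BSA (horizontal axis) of every tested gene of the 7 related lists, beside the 9 tested genes; filled points passed an adjusted p of 0.05, and the farthest genes are named. Tlr2 at 2.85 and Mmp3 at 2.42 lie highest, and Omd at -1.87 and Ogn at -1.70 are among the lowest.

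For the sugar chains, 21 of 22 genes of chondroitin and dermatan sulfate synthesis were tested, with 4 higher and 4 lower with palmitate (median -0.04), 1 and 2 with IL-1β, and 6 and 10 with both. The palmitate counts are near the shares of all tested genes, 19.8% higher and 17.5% lower, and the shares were 10.1% and 4.97% with IL-1β and 24.8% and 22.5% with both. Xylt1, which starts the chain on the core protein, rose in every treatment, from 5.01 ± 0.661 CPM to 8.09 ± 1.01 with IL-1β (0.70), 9.07 ± 0.479 with palmitate (0.88) and 12.9 ± 0.843 with both (1.37, edgeR adjusted p = 1.8e-13). The sulfotransferase gene Chst15 fell with palmitate, from 52.7 ± 2.30 to 35.5 ± 3.55 CPM (-0.57), and Chst12 fell with IL-1β, from 52.6 ± 0.984 to 41.8 ± 2.31 (-0.33). Of keratan sulfate genes, 6 of 9 were tested, with 1 higher and 2 lower with palmitate (19.8% and 17.5% of all tested genes). The counts were 0 and 0 with IL-1β (10.1% and 4.97% of all) and 1 and 4 with both (24.8% and 22.5% of all). Among them, B4galt4 gave -0.34 and Chst2 -0.18 with palmitate, both called, and Chst1 was called lower with both agents only (-0.76). All 15 genes that supply sugar and sulfate donors were tested, with 5 higher and 6 lower with palmitate (19.8% and 17.5% of all). For these genes the counts were 2 and 1 with IL-1β (10.1% and 4.97% of all) and 4 and 5 with both (24.8% and 22.5% of all). Gfpt2, which feeds glucose into hexosamine synthesis, rose from 10.6 ± 0.966 to 18.4 ± 1.29 CPM with palmitate (0.79), Papss2, which makes the sulfate donor, rose from 40.2 ± 1.52 to 53.6 ± 1.91 (0.42), and Ugp2, which makes UDP-glucose, fell from 159.9 ± 10.1 to 125 ± 3.89 (-0.35).

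Among 17 partners of small proteoglycans, such as TGF-β ligands, receptors, collagens and cleaving proteases, all were tested, with 5 higher and 5 lower with palmitate (19.8% and 17.5% of all tested genes), 6 and 1 with IL-1β (10.1% and 4.97% of all), and 6 and 4 with both (24.8% and 22.5% of all). The receptor gene Tlr2, whose product can bind free biglycan, rose from 12.7 ± 0.613 CPM to 91.8 ± 3.73 with palmitate (2.85, edgeR adjusted p = 5.9e-26) and to 28.0 ± 0.765 with IL-1β (1.14). The metalloproteinases Mmp3 and Mmp13, which can cut small proteoglycans, rose with palmitate from 8.64 ± 0.812 to 46.0 ± 1.92 CPM (2.42) and from 17.2 ± 0.450 to 52.5 ± 2.20 CPM (1.61).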

How the data were processed

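Per the file headers and values, the deposited table holds raw read counts per gene for the 16 libraries, neither filtered nor normalized by the authors, whose processing notes name Trimmomatic 0.39 for trimming, STAR 2.7.10a with the mouse build GRCm39 for alignment, and HTSeq 2.0.9 for strand-aware counting. The 5 HTSeq summary entries, a median of 19.0% of reads, stayed out of library sizes and tests. All 16 sample columns matched their labels, and 0 were left unused.

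The main test was the quasi-likelihood test of edgeR 4.0.16 under R 4.3.3 (glmQLFit, glmQLFTest), with the 16 libraries fitted jointly and condition as the one factor, after TMM normalization and filterByExpr (minimum count 10, minimum total 15), with Benjamini-Hochberg adjustment over all genes kept. CPM uses TMM-scaled library sizes. RPKM divides it by the Ensembl canonical transcript length of GENCODE vM39, which also gave positions; counting used an earlier GENCODE release. Intervals are 95%, and the floor of 3 counts covers counting error only. The scripts were tested on simulated data.

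The genes, lists and tests were chosen with earlier results of these data known. Named genes are all 10 members, up to 3 genes of each related list with the smallest p among those called against BSA, the 3 tested genes most like each member with an average log2 CPM of at least 1, and genomic neighbours. Podn, Podnl1, Has3, Cemip, Stab2, Habp4, Bcan and the markers with values were named after their values were seen. Of the lists, Chst6 was not found in the table. Alternatives were DESeq2 1.42.0, upper-quartile scaling, 2 other filters, removal of mitochondrially encoded genes and those of ribosomal RNA, the 8 compared libraries alone, and leaving out each library. The paper's methods and the labels differ on the library kit (oligo(dT) priming or total RNA).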

Additional observations from a re-analysis of the deposited data

Results flagged for a closer look

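In palmitate + IL-1β, replicate 15 stood apart from the other 3 libraries of its condition for 2 genes: it was the lowest for Aspn (132 CPM, with a gap of 0.980 of the whole range of the condition) and the highest for Vcan (285 CPM, with a gap of 0.839 of the range), both above Dixon's 95% critical value for 4 samples. These were 2 of 40 sets of 4 libraries examined, and chance alone exceeds that value in about 1 in 20 sets. The same library was the lowest of its condition for Ogn.

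The response to palmitate differed with and without IL-1β, by edgeR's interaction test, for 7 of the 31 genes examined, where 1.99% of all tested genes were called. Of the 31, 10 are the genes described here, of which Has1 was not tested. The other 21 had been chosen as the smallest p against BSA in their lists, so that the count says nothing of those lists, and all 7 are among the 21. The difference, with minus without IL-1β on the log2 scale, was -1.24 for Tlr2 (adjusted p = 5.3e-12), -0.64 for Ptx3 (adjusted p = 1.9e-08), -0.63 for Mmp13 (adjusted p = 4.9e-06), -0.40 for Mmp3 (adjusted p = 0.0238), -0.34 for Cd44 (adjusted p = 3.5e-04), -0.34 for Adamts4 (adjusted p = 0.00905) and -0.30 for Papss2 (adjusted p = 0.00606). All 7 were called higher with each agent alone, and none of them is a small proteoglycan, versican or a hyaluronan synthase.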

How the results depend on the processing

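Of 1377 log2 fold changes of the 9 tested genes under alternatives, 1327 stayed on their side of the threshold, 8 lost the call, 42 gained one and 0 turned direction while called. Of the 1327, 41 were values not called in either fit that had the other sign, such as Prelp with IL-1β (-0.10 to 0.01). The calls of Ogn and Aspn with palmitate and with both agents, and every Has2 call, held in all 22 alternatives, with palmitate fold changes of -1.77 to -1.67, -1.25 to -1.14 and -0.94 to -0.80. With IL-1β against BSA, 5 of the 9 genes were called in place of 3 when only the 8 compared libraries were fitted (Ogn and Aspn added), and leaving out 1 library gave 2 to 5. For the interaction, 1 gene (Vcan, -0.26) was called with no filter on low counts, and leaving out 1 library gave 0 to 1. For palmitate + IL-1β against palmitate, leaving out 1 library gave 1 to 2, the added gene being Lum without replicate 14. These counts of called genes are given without the share of all tested genes called under the same alternative. Whether they changed more than that share was not tested. The libraries are numbered 1 to 16 across conditions. No paired analysis was possible because the conditions share no replicate number. Depth limited Has1 and Lum, and 4 libraries a condition limit the remaining values.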

Other observations

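Among genes whose values over the 16 libraries lay nearest to the remaining members, Cpe (0.0427), Col6a1 (0.0428) and Sgcb (0.0451) were closest to Dcn, and Itm2c (0.0482), Ssr1 (0.0567) and Rps3 (0.0576) to Bgn, as root mean square differences of log2 CPM from the BSA mean. Vcan was nearest to Prpf8 (0.0522), Myo5a (0.0568) and Cpd (0.0571), Fmod to Syt11 (0.0557), Laptm4a (0.0583) and Mettl9 (0.0614), and Prelp to 5730409E04Rik (0.0614), Srsf9 (0.0732) and Ppp1r2 (0.0756). The low-count Lum was nearest to Tmem26 (0.220), St3gal4 (0.223) and Gm1673 (0.226).

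Other genomic neighbours of the members also moved. Btg1, the nearest protein-coding gene on the Dcn side of its run though 857 kb away, rose from 62.9 to 75.4 CPM with IL-1β (0.26, edgeR adjusted p = 4.1e-04). With both agents it rose to 81.3 CPM (0.37, adjusted p = 3.3e-07). Btg2, 26.9 kb from Fmod, rose from 25.8 to 36.8 CPM with palmitate (0.51, edgeR adjusted p = 7.9e-08). Sntb1, 757 kb from Has2, rose from 43.5 to 55.4 CPM with palmitate (0.35, adjusted p = 6.9e-06). Of all tested genes, 10.1% were called higher with IL-1β, 19.8% with palmitate and 24.8% with both. Haus7, beside Bgn, and Xrcc4, beside Vcan, passed no test against BSA.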
